A study of Mus musculus with 10 samples.

Results

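The transcripts of 10 genes of the NF-κB system were followed in RNA-seq libraries of CD34- hematopoietic stem cells (HSCs). The genes were Rel, Rela, Relb, Nfkb1 and Nfkb2, which encode the 5 NF-κB subunits, and Nfkbia, Nfkbiz, Nfkbid, Tnfaip3 and Bcl3, which encode inhibitors and nuclear modulators of these subunits. They were taken by gene symbol from 33393 genes, and all 10 were among the 12874 genes tested. Rel, Nfkbiz and Nfkbid were marked beforehand as known target mRNAs of the ribonuclease Regnase-1. The cells were Lin- Sca1+ cKit+ CD34- Flt3- cells sorted from the bone marrow of single C57BL/6 mice aged 8 weeks. The Reg1 Δ/Δ mice carried Vav1-iCre; Reg1 flox/flox, in which the Vav1 promoter drives Cre in blood cells and the Regnase-1 gene (Zc3h12a) is to be deleted there. Controls were Reg1 flox/flox mice, so both groups carried the floxed alleles and the labels name Cre for the Reg1 Δ/Δ mice alone. The first set of libraries held 3 controls and 3 Reg1 Δ/Δ, and the second set, whose titles add LT-HSC, held 2 and 2.

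NF-κB proteins are transcription factors that act as pairs of subunits. RelA and RelB proteins and c-Rel (the product of Rel) carry activation domains, whereas Nfkb1 and Nfkb2 give precursor proteins that are cut to the DNA-binding partners p50 and p52. In resting cells IκB proteins, such as the IκBα encoded by Nfkbia, hold the pairs in the cytoplasm. The IKK kinase complex marks IκB for destruction downstream of TNF, IL-1 and Toll-like receptors, and a second route through Map3k14 (NIK) acts on p52 and RelB. Nfkbia, Tnfaip3, Nfkb2, Relb and Rel are themselves textbook NF-κB targets, so that the system is wired with feedback. Regnase-1 cuts stem-loops with a pyrimidine-purine-pyrimidine loop in the 3′UTR, the stretch behind the coding part, of mRNAs for inflammatory proteins.

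Sequences that bear on Regnase-1 and on NF-κB are shown first, stem-loops in the 3′UTR and κB motifs in the promoter. The longest annotated 3′UTR of each gene (GENCODE M21, GRCm38) was searched for a loop of 3 bases, pyrimidine-purine-pyrimidine, closed by at least 5 Watson-Crick pairs without bulges. Rel, Nfkbiz and Nfkbid held 3, 2 and 2 such stem-loops, and none was found in Rela, Relb, Nfkb1, Nfkb2, Nfkbia, Tnfaip3 or Bcl3. Among 20954 genes with an annotated 3′UTR, 21.2% held at least 1, and 8.49% held 1 with a stem of at least 6 pairs. UTR length differed between these genes. The Rel 3′UTR was 5418 bases long, and 35.1% of the 795 genes with a 3′UTR over 5000 bases held a stem of at least 6 pairs. The Nfkbiz and Nfkbid 3′UTRs were 1355 and 559 bases long, and the share was 5.52% among 7885 genes with 400 to 1500 bases. The longest stem of each of the 3 genes was 6 pairs in Rel, 7 in Nfkbiz and 6 in Nfkbid. A match describes the letters and does not show that Regnase-1 acts there. The stem-loops with 6 or more pairs read as follows, in the mRNA sense with the loop in capitals:
Rel, chr11:23742028-23742042, minus strand: aatggcTATgccatt
Nfkbiz, chr16:55812613-55812629, minus strand: ttgtttcTATgaaacaa
Nfkbiz, chr16:55812586-55812600, minus strand: cactatTATatagtg
Nfkbid, chr7:30428402-30428416, plus strand: gatttcTGTgaaatc
Nfkbid, chr7:30428430-30428444, plus strand: tgtttcTGTgaaaca

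In these 5 sites the loops of Rel and Nfkbiz had the same 3 letters, and both Nfkbid sites shared another loop. The promoters were searched for the κB consensus on both strands, in RefSeq windows from 250 bases before to 50 bases after each start (GRCm38.p6). RefSeq windows were at hand for 7 of the 10 genes, and Relb, Nfkb1 and Nfkbiz were not among them. The motif stood in a window of 6 of the 7 genes (Rel, Nfkb2, Nfkbia, Nfkbid, Tnfaip3 and Bcl3) and not in that of Rela, against 9.55% of 27025 genes and 8.46% of 32851 windows. Here, too, a match is no shown site, and the absence of one in Rela says nothing beyond this window. One match per gene is printed with 9 bases on each side and the motif in capitals, to show what the search found. For Rel and Nfkb2, overlapping matches were joined to 11 bases:
Rel, chr11:23771042-23771070, minus strand: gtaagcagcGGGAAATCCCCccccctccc
Nfkb2, chr19:46304689-46304717, plus strand: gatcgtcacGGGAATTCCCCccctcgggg
Nfkbia, chr12:55492658-55492685, minus strand: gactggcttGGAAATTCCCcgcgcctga
Nfkbid, chr7:30422171-30422198, plus strand: ccccgccctGGGACTTCCCagagcacca
Tnfaip3, chr10:19015404-19015431, minus strand: atttccatcGGAAATCCCCctgttggca
Bcl3, chr7:19822735-19822762, minus strand: cggcggcagGGGAAGTCCCgctgcccgg

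Counted from the start site as base 1, the matches of Rel, Nfkb2, Nfkbia and Tnfaip3 began at -92, -39, -29 and -12, and that of Bcl3 at 3. The Nfkbid match began at -226 in 1 of its 3 windows.

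The libraries were checked against their labels. Zc3h12a, the deleted gene (chr4:125118423-125127840), went against the label. Its level in the first set was 1.83, 1.28 and 1.60 TPM (a relative level corrected for transcript length, with the same total in every library) in controls, and 3.54, 2.08 and 2.51 TPM in Reg1 Δ/Δ. In the second set it was 1.48 and 6.07 TPM in controls and 10.3 and 8.52 TPM in Reg1 Δ/Δ. Values per transcript do not tell whether these reads lie in the deleted part, so every direction below follows the label, and a Reg1 Δ/Δ library here is a library labelled as such. The sort markers Kit and Ly6a (Sca1) were present in all libraries, at 56.1 TPM or more for Kit and 50.9 TPM or more for Ly6a. Of 8 stem cell markers 7 were called lower in Reg1 Δ/Δ (37.9% of all tested genes were), with Fgd5 at 0.0364 to 0.210 TPM, against 2.61 to 7.50 TPM in controls. Fgd5 passed the filter through controls alone and so had to differ. The controls held transcripts of other blood cells. The summed level of 7 B-lineage markers was 131 to 996 TPM in controls and 2.34 to 18.1 TPM in Reg1 Δ/Δ, where Pax5 was listed at 0 in at least 1 library. For 8 neutrophil markers these ranges were 3042 to 13124 and 309 to 968 TPM, and for 7 monocyte, macrophage and dendritic markers 230 to 861 and 17.1 to 41.6 TPM. For 7 T and NK markers they were 103 to 328 and 39.0 to 148 TPM. Among these Nkg7 stood at 63.2 to 269 TPM in controls, while Cd3e, Cd3d, Cd3g and Cd8a reached at most 2.90 TPM there. For 5 megakaryocyte markers the ranges were 93.6 to 455 and 19.1 to 98.8 TPM. For 6 erythroid markers they were 1009 to 3538 and 555 to 839 TPM. The part of these transcripts in the differences below was not tested, and in bulk libraries fewer cells of a type and less RNA per cell cannot be told apart.

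Among the subunits, Rel, Relb and Nfkb2 were lower in Reg1 Δ/Δ, and Rela and Nfkb1 were not called. Among the inhibitors, Nfkbia, Tnfaip3 and Bcl3 were lower, and Nfkbiz and Nfkbid were not called. In all, 6 of the 10 genes were called lower and 0 higher with limma on log2(TPM + 1) at a Benjamini-Hochberg FDR under 0.05. Of all 12874 tested genes 37.9% were called lower and 15% higher, with a median log2 fold change of -0.25, so lower calls were common. Rel passed the level filter through the 5 controls alone, so it had to differ to be tested, and its call is no support for the count. Each set alone gave 7 lower calls in the first set (38.3% of all genes) and 3 in the second (12.3%), and 0 higher calls in either. TPM is relative, and another scaling moved the median of all genes to 0.14 (quantile normalization) or 0.10 (median-of-ratios scaling). The lower calls were then 4 (20.5% of all genes) and 6 (25.2%), respectively, and the higher calls 0 under both (30% and 33.7% of all genes). With protein-coding transcripts alone, rescaled, they were 6 (41.5%).

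**Figure D1:**
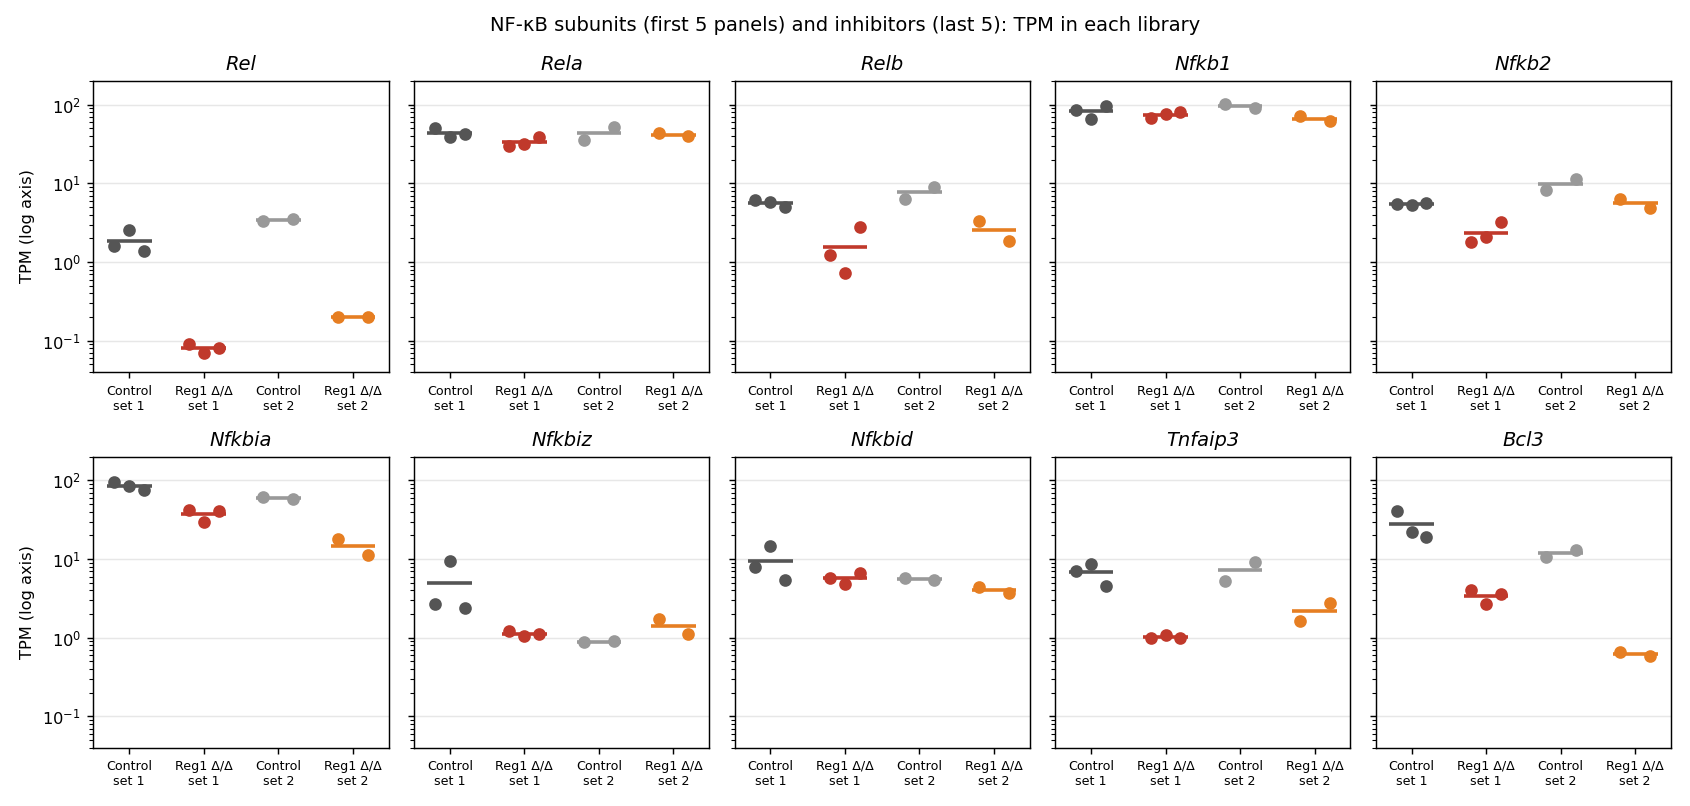
TPM on a log axis for each of the 10 genes, with 1 point per library and a line at the group mean, for controls and Reg1 Δ/Δ in the first (3 and 3) and second set (2 and 2). Rel fell from 1.39 to 3.52 TPM in controls to 0.0696 to 0.201 TPM, whereas Rela lay between 29.7 and 51.6 TPM and Nfkb1 between 61.3 and 102 TPM over all libraries.

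Rel (ENSMUSG00000020275.9, chr11:23736847-23770970, minus strand) encodes c-Rel, the subunit best known in lymphocytes. Its controls stood at 1.59, 2.55 and 1.39 TPM in the first set and at 3.29 and 3.52 TPM in the second. Reg1 Δ/Δ libraries held 0.0916, 0.0696 and 0.0811 TPM in the first set and 0.201 and 0.199 TPM in the second. The groups did not overlap in either set, and the ratio of the mean TPM of controls to that of Reg1 Δ/Δ was 22.8 in the first set and 17.04 in the second. The log2 fold change on the log2(TPM + 1) scale was -1.57 (SE 0.142, limma FDR 1.58e-05), which understates the change of so low a gene. With a pseudocount of 0.1 it was -3.45, and with quantile normalization -0.59 (FDR 0.00995). Only 1 Rel transcript, protein coding and of 7466 bases, was listed in the data, so it holds the whole Rel signal by annotation.

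Relb (ENSMUSG00000002983.17, chr7:19606217-19629438, minus strand) encodes the subunit that pairs with p52. It stood at 6.09, 5.72 and 4.97 TPM in the first controls and 6.40 and 9.09 TPM in the second. In Reg1 Δ/Δ it was at 1.22, 0.731 and 2.76 TPM in the first set and 3.29 and 1.85 TPM in the second. No Reg1 Δ/Δ library reached a control, and the log2 fold change was -1.38 (SE 0.216, limma FDR 0.000516). The call was lost with quantile normalization (log2 fold change -0.58, FDR 0.0584) and in the second set alone (FDR 0.0969).

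Nfkb2 (ENSMUSG00000025225.14, chr19:46304320-46312385, plus strand), the source of p52, stood at 5.40, 5.29 and 5.56 TPM in the first controls and 8.31 and 11.4 TPM in the second. The Reg1 Δ/Δ values were 1.81, 2.07 and 3.21 TPM in the first set and 6.41 and 4.91 TPM in the second. The groups did not overlap within a set, but the second Reg1 Δ/Δ library of highest level lay above all 3 first controls, so the difference is read within sets. Its log2 fold change was -0.85 (SE 0.147, limma FDR 0.000912). It was -0.09 with quantile normalization (FDR 0.595), and the call was also lost in the second set alone (FDR 0.150) and without the set as a covariate (FDR 0.0721). Nfkb2 overlaps 299 bases of Psd and 1292 bases of a second transcription unit on the other strand, and this library type does not record strand.

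Rela (ENSMUSG00000024927.7, chr19:5637483-5648130, plus strand) encodes p65, the most widely used activating subunit. It stood at 50.5, 38.4 and 43.1 TPM in the first controls and 35.8 and 51.6 TPM in the second. Levels in Reg1 Δ/Δ were 29.7, 32.1 and 39.1 TPM in the first set and 43.6 and 39.6 TPM in the second. The groups overlapped in both sets. The log2 fold change of -0.25 (95% interval -0.57 to 0.08, limma FDR 0.181) was the same to 2 decimals as the median of all genes, and it turned to 0.16 with median-of-ratios scaling. Without the first control of the second set, the lowest there, it was -0.36 and called.

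Nfkb1 (ENSMUSG00000028163.17, chr3:135584655-135691547, minus strand), the source of p50, had the highest level of the subunit genes with all classes of transcript summed. Its coding transcripts alone stood at 3.96 to 9.75 TPM in the first set, against 29.7 to 50.5 TPM for Rela. In the second set they stood at 27.9 to 62.4 TPM, beside 35.8 to 51.6 TPM for Rela. With all classes, Nfkb1 stood at 86.1, 66.7 and 95.8 TPM in the first controls and 102 and 90.9 TPM in the second. With Reg1 Δ/Δ the levels were 67.4, 76.9 and 80.9 TPM in the first set and 71.9 and 61.3 TPM in the second. The groups overlapped in the first set and not in the second. The difference on the log2 scale was -0.29 (95% interval -0.60 to 0.02, limma FDR 0.106) and turned to 0.12 with median-of-ratios scaling. Without control replicate 2, the lowest first control, it was -0.39 and called (FDR 0.0224). Nfkb1 shares 3897 bases with Gm43430 on the same strand, whose reads cannot be told apart from its own.

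Nfkbia (ENSMUSG00000021025.8, chr12:55489410-55492647, minus strand) encodes IκBα, the classical inhibitor that restores the resting state after a stimulus. It stood at 96.2, 85.2 and 74.6 TPM in the first controls and 61.8 and 58.1 TPM in the second. Reg1 Δ/Δ libraries held 41.5, 29.3 and 41.3 TPM in the first set and 18.2 and 11.1 TPM in the second. Every Reg1 Δ/Δ library lay below every control, across the sets as well. The ratio of controls to Reg1 Δ/Δ was 2.28 in the first set and 4.08 in the second. On the log2 scale the difference was -1.51 (SE 0.204, limma FDR 0.000209), and it kept its call under all 22 alternatives of the fit.

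Tnfaip3 (ENSMUSG00000019850.11, chr10:19000910-19015657, minus strand) encodes A20, a ubiquitin-editing enzyme that shuts off signalling to IKK. It stood at 7.13, 8.73 and 4.49 TPM in the first controls and 5.23 and 9.21 TPM in the second. In Reg1 Δ/Δ it was at 0.984, 1.08 and 0.982 TPM in the first set and 1.66 and 2.77 TPM in the second. The groups did not overlap in or across the sets, and the ratio of controls to Reg1 Δ/Δ was 6.69 in the first set and 3.27 in the second. By label the log2 fold change was -1.68 (SE 0.213, limma FDR 0.000139), and the call was lost in the second set alone (FDR 0.117). With quantile normalization it was -0.90 (FDR 0.00966).

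Bcl3 (ENSMUSG00000053175.17, chr7:19808462-19822770, minus strand) encodes a nuclear IκB-like protein that binds p50 and p52 pairs, and it had the greatest log2 fold change of the 10 genes at a pseudocount of 1. At 0.1 it was -3.36, beside -3.45 for Rel. Its controls stood at 41.0, 22.4 and 19.3 TPM in the first set and at 10.6 and 13.1 TPM in the second. The Reg1 Δ/Δ values were 4.03, 2.66 and 3.60 TPM in the first set and 0.658 and 0.593 TPM in the second. The lowest control was above the highest Reg1 Δ/Δ library in each set and across the sets. Its log2 fold change was -2.77 (SE 0.204, limma FDR 4.39e-06), and -2.02 with quantile normalization. Bcl3 overlaps 2264 and 2073 bases of 2 antisense genes, whose reads cannot be told from its own without strand.

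Nfkbiz (ENSMUSG00000035356.16, chr16:55811375-55838899, minus strand) encodes IκBζ, a nuclear co-activator induced by IL-1 and Toll-like receptor signals. It stood at 2.72, 9.59 and 2.38 TPM in the first controls and 0.882 and 0.905 TPM in the second. Levels in Reg1 Δ/Δ were 1.21, 1.07 and 1.10 TPM in the first set and 1.71 and 1.10 TPM in the second. In the first set all 3 lay below the controls, and in the second both lay above them, a pattern of 1.13% of all tested genes. Among the 4 groups the highest mean was that of the first controls (4.89 ± 4.07 TPM, SD, n = 3), carried by replicate 2, and the other 3 means lay between 0.893 and 1.41 TPM. Over both sets the log2 fold change was -0.62 (95% interval -1.47 to 0.23, limma FDR 0.193), -0.25 without control replicate 2, and 0.11 with quantile normalization. In the first set alone it was -1.26 (FDR 0.0454), and this call was lost when control replicate 1 (FDR 0.0514) or any single Reg1 Δ/Δ library (FDR 0.0955 to 0.101) was left out. It was kept without control replicate 2, at a smaller -0.74 (FDR 0.00759), and without control replicate 3 (-1.56, FDR 0.0318).

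Nfkbid (ENSMUSG00000036931.15, chr7:30421732-30428746, plus strand) encodes IκBNS, another nuclear IκB protein, with roles in lymphocyte development. It stood at 7.89, 14.7 and 5.37 TPM in the first controls and 5.67 and 5.44 TPM in the second. With Reg1 Δ/Δ the levels were 5.67, 4.76 and 6.70 TPM in the first set and 4.39 and 3.70 TPM in the second. The groups overlapped in the first set and not in the second. The change by label, on the log2 scale, was -0.47 (95% interval -0.96 to 0.02, limma FDR 0.0970), and it turned to 0.31 with quantile normalization. It was -0.62 and called without control replicate 3, and -0.27 (FDR 0.151) without control replicate 2, the library of highest Nfkbid.

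Control replicate 2 of the first set, which held the highest Nfkbiz and Nfkbid of all libraries and the highest Rel and Tnfaip3 of its set, also differed from its set in a pair of genes picked after their values were seen. Junb, an immediate-early transcription factor, was at 113 TPM there and at 24.6 and 16.8 TPM in the other first controls. The chemokine Ccl4 was at 155 TPM there, against 12.4 and 19.0 TPM. Control replicate 1 had the lowest summed B-lineage markers of the controls, 131 TPM. Without both of these libraries, a setting chosen after the values were seen, 7 genes were called lower (30.1% of all genes): the 6 above and Nfkb1 (log2 fold change -0.45, FDR 0.0249).

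In 6 of the 10 genes (Rel, Relb, Nfkb2, Nfkbia, Tnfaip3 and Bcl3) every Reg1 Δ/Δ library lay below every control of its set, which 31.4% of all tested genes did. For Rel the level filter had fixed this. In 0 of the 10 genes it lay above in both sets, which 12.7% did. The difference by label was also compared between the sets with an interaction term in limma. It was called for 0 of the 10 genes, against 0.443% of all tested genes (57 genes). The unadjusted p was under 0.05 for Nfkbia (difference -0.82, limma p 0.0396, FDR 0.370) and Nfkbiz (difference 1.60, limma p 0.0278, FDR 0.333) alone among the 10. Of all 12874 tested genes 1603 had an unadjusted limma p under 0.05 for this term.

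**Figure D2:**
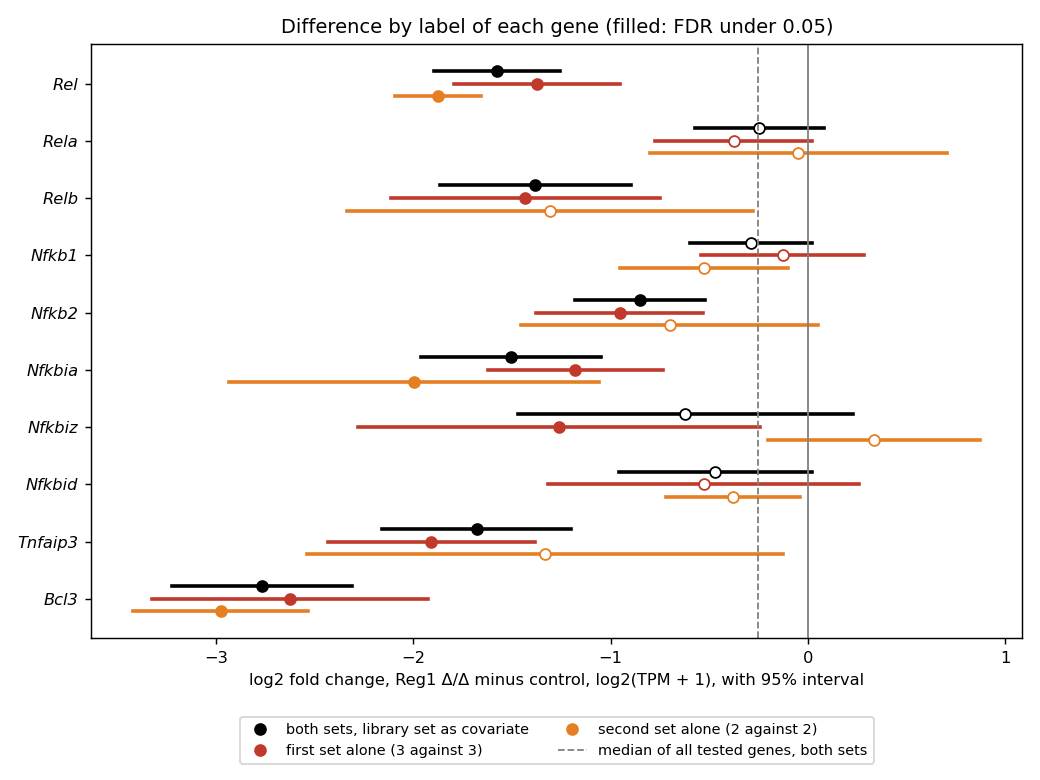
Log2 fold change (Reg1 Δ/Δ minus control, log2(TPM + 1)) of each gene with its 95% interval, for both sets in 1 fit, the first set alone and the second set alone. Filled points have an FDR under 0.05, and the dashed line is the median of all tested genes at -0.25. Bcl3 lies furthest left, at -2.77 for both sets in 1 fit and -2.98 in the second set alone. Nfkbiz has its sets on opposite sides of 0.

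The composition of the subunit transcripts was described as the share of each in their summed TPM, with no test. All classes of transcript, coding or not, were summed. Nfkb1 and Rela made up most of the sum in every library. In the first set, however, coding transcripts held only 5.37% to 10.2% of the Nfkb1 TPM, whereas all Rela TPM was coding. Nfkb1 held 54.6% to 65.4% in controls and 56.8% to 68.7% in Reg1 Δ/Δ, and Rela held 23.0% to 33.7% and 28.7% to 36.7%. The share of Rel was 0.920% to 2.15% in controls and 0.0622% to 0.184% in Reg1 Δ/Δ. That of Relb was 3.29% to 5.46% in controls and 0.653% to 2.62% in Reg1 Δ/Δ. The Nfkb2 share was 3.61% to 4.46% in the first controls and 1.80% to 2.54% in the first Reg1 Δ/Δ libraries, and in the second set 5.35% and 6.87% stood against 5.11% and 4.55%. In the first set the Nfkb1 share of every Reg1 Δ/Δ library (64.2% to 68.7%) was above that of every control (56.2% to 63.5%), and in the second set the groups overlapped. The first-set order rests mostly on non-coding Nfkb1 transcripts, and nothing is read from it about coding Nfkb1. The coding level overlapped there, at 4.40 to 9.75 TPM in controls and 3.96 to 5.84 TPM in Reg1 Δ/Δ. The shares of Rel and Relb were lower by label in both sets.

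The summed TPM of the 5 inhibitors was set against that of the 5 subunits in the same way. The ratio was 1.04, 1.18 and 0.704 in the first controls and 0.533, 0.347 and 0.426 in the first Reg1 Δ/Δ libraries. In the second set it was 0.541 and 0.521 in controls and 0.213 and 0.179 in Reg1 Δ/Δ. Within each set all controls were above all Reg1 Δ/Δ libraries. The ratio sums all classes of transcript, and these differed between the sets. Retained-intron transcripts held 66.3% to 68.4% of the Nfkbia TPM in the first set and 0% to 17.9% in the second. The ratio is therefore compared within sets only. Nfkbia held more of the inhibitor sum than the other inhibitors together in every library, so the ratio largely follows this gene.

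**Figure D3:**
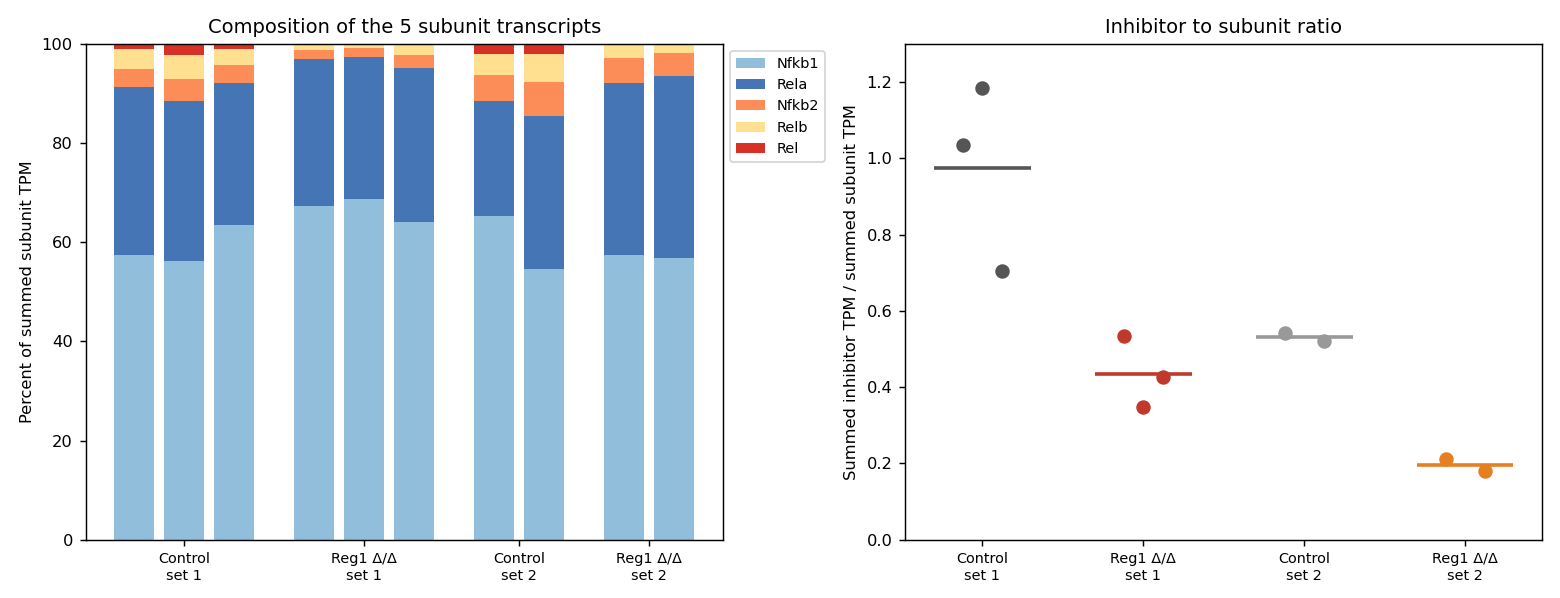
Left, the share of each subunit gene in the summed TPM of the 5 subunits, 1 bar per library; right, the summed TPM of the 5 inhibitors over that of the 5 subunits, 1 point per library with a line at the group mean. All classes of transcript are summed, and coding transcripts held only 5.37% to 10.2% of the Nfkb1 TPM in the first set. Nfkb1 and Rela fill most of every bar. The ratio is 0.704 to 1.18 in first controls against 0.347 to 0.533 in first Reg1 Δ/Δ libraries. In the second set it is 0.521 to 0.541 against 0.179 to 0.213.

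The files list 43 transcripts of the 10 genes, and 16 passed the level filter. Of these, 6 were called lower and 0 higher, against 14.9% and 6.4% of the 31937 transcripts tested. Of these 6, the Rel transcript and the coding Bcl3 transcripts reached 1 TPM in the 5 controls alone, so they had to differ to be tested, and nothing is read from the count. The 6 were the coding transcripts of Rel (7466 bases), Nfkbia (1578 bases) and Tnfaip3 (4422 bases) and 3 transcripts of Bcl3 (1850 and 755 bases, coding, and 346 bases, processed transcript). The share of protein-coding transcripts in all TPM was 46.2% to 49.1% in the first set and 73.5% to 81.1% in the second, so isoform levels are compared within sets only.

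For Nfkbia the class of transcript differed between the sets far more than by label. A retained-intron transcript of 701 bases held 67.7% to 68.4% of the Nfkbia TPM in first controls and 66.3% to 68.3% in first Reg1 Δ/Δ libraries. In the second set its share was 0% and 4.97% in controls and 17.9% and 0% in Reg1 Δ/Δ. The coding transcript stood at 31.0, 26.9 and 23.6 TPM in the first controls and at 13.3, 9.29 and 13.9 TPM in the first Reg1 Δ/Δ libraries. In the second set it stood at 61.8 and 55.2 TPM in controls and at 15.0 and 11.1 TPM in Reg1 Δ/Δ. Its log2 fold change was -1.50 (SE 0.226, limma FDR 0.00144), close to that of the gene.

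Nfkb1 was likewise carried by non-coding classes in the first set. Coding transcripts held 6.40% to 10.2% of its TPM in first controls and 5.37% to 7.60% in first Reg1 Δ/Δ libraries, and 33.5% to 68.6% and 45.6% to 52.4% in the second set. A processed transcript of 528 bases had a mean of 40.9 ± 9.34 TPM (SD, n = 3) in first controls and 38.3 ± 2.81 TPM (SD, n = 3) in first Reg1 Δ/Δ libraries. The coding level of Nfkb1 in the first set was therefore 4.40 to 9.75 TPM in controls and 3.96 to 5.84 TPM in Reg1 Δ/Δ, ranges that overlap. Its 5 tested transcripts had no call, with FDR from 0.136 to 0.825.

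For Bcl3 the 346-base processed transcript, with 20.3, 12.5 and 9.50 TPM in the first controls and 1.39, 1.09 and 1.58 TPM in the first Reg1 Δ/Δ libraries, was listed at 0 in all 4 libraries of the second set. The 1850-base coding transcript was measured in all libraries, at 3.05 to 7.42 TPM in controls and 0.431 to 0.980 TPM in Reg1 Δ/Δ. Its log2 fold change was -1.62 (SE 0.217, limma FDR 0.000734), but it passed the filter through the 5 controls alone and so had to differ. For Nfkb2 the main coding transcript missed the threshold (log2 fold change -0.64, limma FDR 0.0556), although the gene was called.

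**Figure D4:**
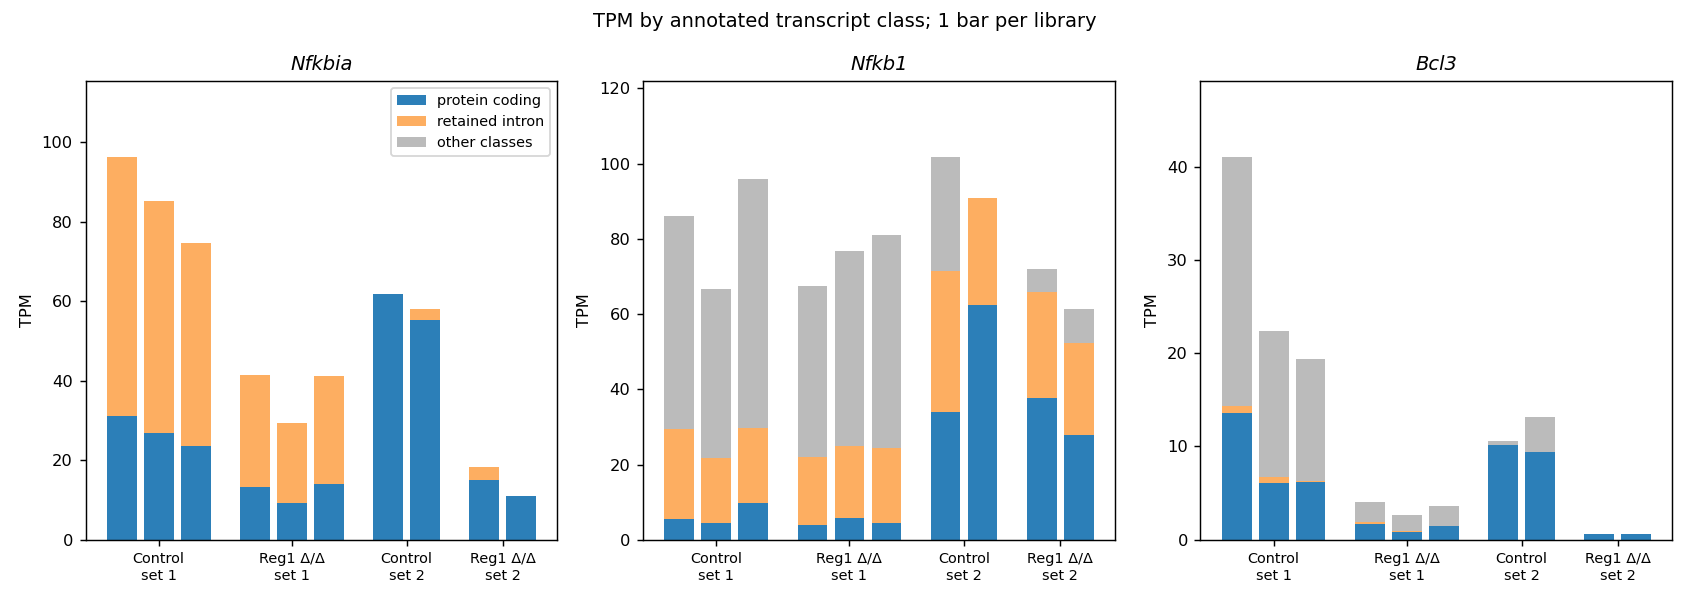
TPM of Nfkbia, Nfkb1 and Bcl3 split by the annotated class of transcript (protein coding, retained intron, other classes), 1 bar per library. Retained-intron signal makes up 66.3% to 68.4% of Nfkbia in the first set and 0% to 17.9% in the second, while the coding part of Nfkbia and of Bcl3 is lower by label in both sets.

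The genes most like Rel, Nfkbiz and Nfkbid over the 10 libraries were sought by Pearson correlation of log2(TPM + 1) after the set means were taken away, as a description. The points share the contrast of controls against Reg1 Δ/Δ and the libraries themselves. Rel was followed most closely by Gpr132, Ptp4a3 and P2ry10, with r = 0.995 each. Nfkbid was followed by Cebpb (r = 0.961), Ppp1r15a (r = 0.948) and Junb (r = 0.939), of which Junb was highest in control replicate 2. Nfkbiz was followed by 3 genes of no stated function, Gm24045 (r = 0.959) and 2 genes with RP24 clone names (r = 0.969 and 0.961).

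The other parts of the pathway were read from the same fit. Of the IKK complex and its adaptors, 27 of 28 genes were tested, 11 were lower and 1 was higher, with a median log2 fold change of -0.39 beside -0.25 for all genes. The share of lower calls, 40.7%, was near the 37.9% of all genes, and it includes Map3k14, which passed the filter through controls alone and so had to differ. Traf1, an adaptor at TNF receptors and an NF-κB target, stood at 8.21 ± 3.73 TPM in controls and 0.342 TPM in Reg1 Δ/Δ (log2 fold change -2.70, limma FDR 6.65e-06). Ikbke, a kinase related to IKK, was lower by 1.71 on the log2 scale, Map3k14 by 1.59 and Birc3, a ubiquitin ligase at TNF receptors, by 1.50. Myd88, the adaptor of Toll-like and IL-1 receptors, was higher (28.9 against 39.1 TPM in the mean, log2 fold change 0.42, limma FDR 0.0153), although the ranges of the groups overlapped. The IKK core genes were Ikbkb, lower by 0.53 (limma FDR 0.0125), and Chuk (log2 fold change 0.24, FDR 0.0518) and Ikbkg (log2 fold change -0.38, FDR 0.257), which were not called. With median-of-ratios scaling Ikbkb lost its call (-0.12, FDR 0.400), and Chuk was called higher there (0.64, FDR 0.000315) and with quantile normalization (0.58, FDR 0.00135). With quantile normalization 6 were higher and 7 lower, beside 30% and 20.5% of all genes. With median-of-ratios scaling 9 were higher and 7 lower, beside 33.7% and 25.2% of all genes, so the split moved with that of all genes.

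Of 15 other inhibitors all were tested, 10 were lower and 2 higher, with a median of -0.84, beside 37.9% lower, 15% higher and a median of -0.25 among all genes. With quantile normalization 7 were lower (20.5% of all genes) and 2 higher (30%), and with median-of-ratios scaling 8 (25.2%) and 4 (33.7%). Tnip3 (log2 fold change -2.96), Pdlim2 (-2.58), Irak3 (-2.10) and Nfkbie (-1.91) had the greatest falls. Nfkbie encodes IκBε, and Irak3 a brake on IRAK kinases. Nfkbie stood at 11.0 to 19.0 TPM in controls and at 2.27 to 3.57 TPM in Reg1 Δ/Δ, without overlap. Nfkbib, which encodes IκBβ, was higher instead, at 27.3 to 35.9 TPM in controls and 41.8 to 55.3 TPM in Reg1 Δ/Δ (log2 fold change 0.55, limma FDR 0.00266). The genes of the 3 classical IκB proteins thus did not move together by label. Zc3h12a was the other gene called higher (log2 fold change 0.83, limma FDR 0.0314), and 10 of its 22 alternatives lost that call.

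Of 14 receptor genes 10 were tested, and all 10 were lower, beside 37.9% of all genes. However, 4 of them (Il1r1, Il18r1, Tlr2 and Tlr4) passed the filter through controls alone and so had to differ. The lower calls were 8 with quantile normalization (20.5% of all genes) and 8 with median-of-ratios scaling (25.2%), where Il1rap and Tlr6 lost theirs, and under quantile normalization these turned to 0.23 and 0.03. Tnfrsf1a, the main TNF receptor, stood at 42.9 to 72.7 TPM in controls and 7.89 to 15.9 TPM in Reg1 Δ/Δ (log2 fold change -2.27, limma FDR 1.19e-05). Tnfrsf13c, the BAFF receptor of B cells, was lower by 3.05 on the log2 scale. The fitted values of Tlr2 and Il18r1, -2.19 and -1.90, are a description only. The B-lineage and monocyte markers given above moved the same way, and their part was not tested.

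Of 10 ligand genes 4 were tested and 3 were lower (37.9% of all genes), of which Tnfsf14 passed the filter through controls alone and so had to differ. Ltb, the lymphotoxin that feeds the Map3k14 route, stood at 66.1 to 98.1 TPM in controls and 1.32 to 3.38 TPM in Reg1 Δ/Δ (log2 fold change -4.61, limma FDR 2.14e-07). On the log2 scale Il18 was lower by 3.03 and Tnfsf14 by 1.88. Il18 was listed at 0 in at least 1 Reg1 Δ/Δ library and reached at most 1.80 TPM in the others. Tnf was not tested, with at most 1.07 TPM in controls and 0.321 TPM in Reg1 Δ/Δ.

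Of the textbook NF-κB target genes other than the members, 24 of the 34 in the files were tested, 16 were lower and 3 higher, with a median of -1.25, beside 37.9% lower and 15% higher among all genes. With quantile normalization 12 were lower (20.5% of all genes) and 5 higher (30%), and with median-of-ratios scaling 15 (25.2%) and 5 (33.7%). Lcn2, also a neutrophil granule gene, had the greatest fall (log2 fold change -4.33, limma FDR 0.000179), beside the neutrophil markers above. The chemokines Ccl4 (-3.25), Ccl3 (-3.20) and Ccl5 (-2.91) followed. Without control replicate 2 they kept their calls with another order, Ccl5 at -3.14 (limma FDR 0.000180), Ccl3 at -2.63 (FDR 7.13e-06) and Ccl4 at -2.56 (FDR 2.72e-05). Tnfaip2 was higher, at 41.8 to 124 TPM in controls and 191 to 233 TPM in Reg1 Δ/Δ (log2 fold change 1.25, limma FDR 0.00385). Fth1, the ferritin heavy chain (0.56), and Sod2, a mitochondrial superoxide dismutase (0.51), were higher as well, and the Fth1 value is uncertain because near-identical copies can share its reads. Birc3, Traf1, Nfkbie and Tnip1 stand both here and in a list above.

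Of the known Regnase-1 targets 6 of the 13 in the files were tested, 1 was lower and 2 were higher, beside 37.9% lower and 15% higher among all genes. The lower one was Rel, which had to differ to be tested. Tfrc, the transferrin receptor, stood at 33.4 to 55.3 TPM in controls and 119 to 318 TPM in Reg1 Δ/Δ, a ratio of means of 4.43 (log2 fold change 2.07, limma FDR 2.09e-05). Of the 6 erythroid markers 2 were called higher and 3 lower. The higher ones were Klf1 and Epor, from 27.8 to 132 TPM and 11.5 to 60.8 TPM in controls to 242 to 322 TPM and 68.7 to 96.9 TPM, and the lower ones were a pair of globin genes and Slc4a1. Their part in the Tfrc difference was not tested. Zc3h12a was the second gene called higher. Nfkbiz, Nfkbid and Il1b (log2 fold change -0.62, limma FDR 0.0519) were not called. The other 7 (Il2, Il6, Tnfrsf4, Icos, Ctla4, Ptgs2 and Cxcl1) were not tested and reached at most 0.761 TPM in any Reg1 Δ/Δ library, and at most 5.40 TPM (Ptgs2) and 3.61 TPM (Icos) in a control.

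**Figure D5:**
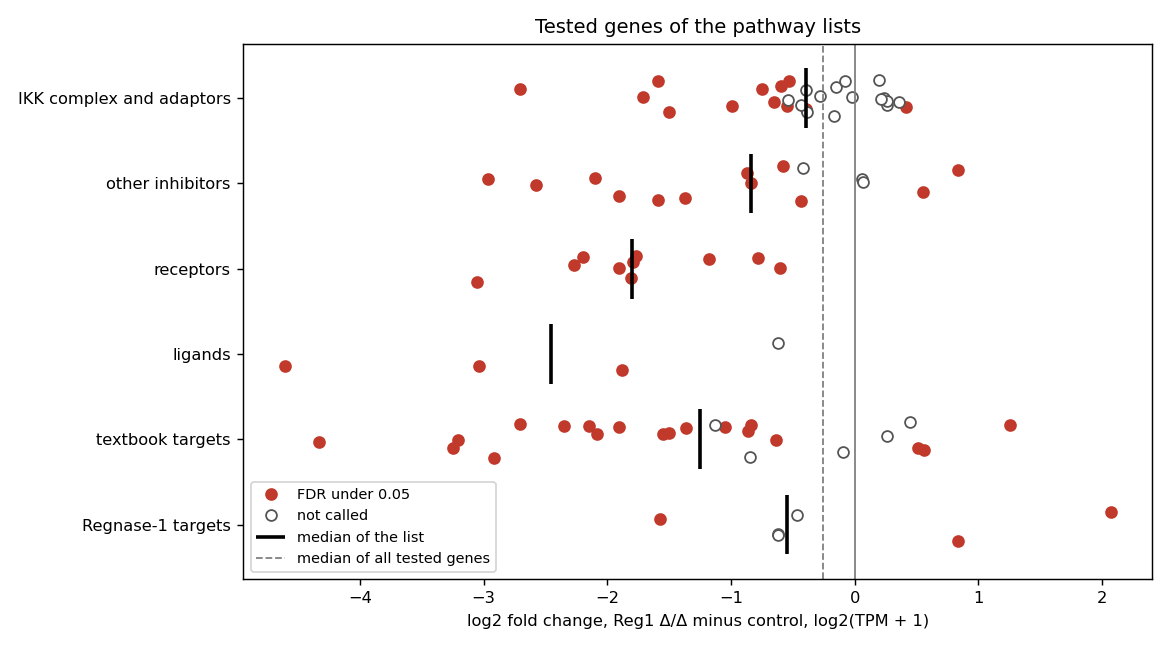
Log2 fold change (Reg1 Δ/Δ minus control, log2(TPM + 1)) of each tested gene of the 6 pathway lists, filled where the FDR was under 0.05, with a black line at the median of each list and a dashed line at the median of all tested genes (-0.25). All 10 tested receptors lie left of 0 (Il1rap and Tlr6 turn to 0.23 and 0.03 with quantile normalization), while Tfrc among the Regnase-1 targets lies at 2.07.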

How the data were processed

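RNA was measured in 10 libraries of CD34- HSCs, 5 control and 5 labelled Reg1 Δ/Δ. The authors amplified cDNA with a SMART-Seq kit (the labels and the methods name different versions), made Nextera XT libraries, aligned paired-end reads to GRCm38 with STAR and quantified transcripts with Salmon 0.9.1. The deposited values are log2 of TPM + 1 per transcript, 95912 transcripts per file. TPM keeps no read number, so the depth is unknown and no counting interval is given. In 1 file of the second set the header repeated the name of the other Reg1 Δ/Δ library, and it was taken by its GEO record.

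The log was undone, the added 1 was taken off, and TPM was summed per gene. Genes with at least 1 TPM in at least 5 libraries were tested with limma 3.58.1 (lmFit, eBayes) in R 4.3.3, with the library set as covariate, a pseudocount of 1 and Benjamini-Hochberg adjustment at 0.05. Gene positions are those of GENCODE M21. On simulated data with 200 of 12874 genes changed, limma recovered 177 and made 9 false calls. Tables and plots used Python 3.11.15. The members and lists were chosen with earlier results of these data known. All 10 members and Zc3h12a were named, and from each list up to 4 genes higher and 4 lower by size of change. Every tested Regnase-1 target and the 3 closest genes to Rel, Nfkbiz and Nfkbid were named too. Chuk, Ikbkg, Ikbkb, Tnf, Junb and the markers named were chosen after their values were seen. Alternatives were other filters, pseudocount, scalings, covariates, transcript classes, a variance trend, each library left out and a replicate block.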

Additional observations from a re-analysis of the deposited data

Results flagged for a closer look

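Nfkbiz was singled out because its difference by label had opposite directions in the 2 sets. In the first set every library labelled Reg1 Δ/Δ was below every control (log2 fold change -1.26), and in the second set both were above both controls (log2 fold change 0.34). The interaction term was 1.60 on the log2 scale, and limma's test of that difference missed the threshold (p 0.0278, FDR 0.333). Of all tested genes 1.13% had this pattern. Without control replicate 2, the library of highest Nfkbiz, the first-set log2 fold change was -0.74 (FDR 0.00759).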

How the results depend on the processing

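Without any filter, with a pseudocount of 0.1, with a variance trend or with median-of-ratios scaling, the count of members called lower was 6, as in the report. It was 5 without the set as covariate (23.7% of all genes lower), 4 with quantile normalization, 3 in the second set alone, and 2 with a minimum of 1 TPM in every library (35.3%), where 5 members were left to test. Without a filter 16.7% of all genes were lower. Leaving out each library in turn gave 6 to 7, with Nfkb1, Nfkbid or Rela as the added call. No member was called higher under any alternative of this fit. In the first set alone 7 members were called, but 2 with that minimum and 3 with quantile normalization. With that minimum 3347 of 9412 genes were lower and 1513 higher in the first set. With quantile normalization 2448 of 12874 were lower and 3402 higher. In the second set alone 3 members were called, but 1 without a filter and 1 with that minimum. In that set 403 of 33393 genes were lower and 180 higher without a filter, and 1316 of 9412 lower and 481 higher with that minimum. Leaving out a library there gave 0 to 0 calls among the members and also among all genes, with 2790 to 4769 genes at an unadjusted limma p under 0.05. This leaves a single library in an arm, assumed to vary like the others, and says nothing about stability. In the first set leaving out a library gave 6 to 7 (3994 to 4674 of 12874 genes lower). Both of these were added after the data were seen. Among the pathway genes other than members, those called higher rose from 7 to 14 with quantile normalization and 19 with median-of-ratios scaling, while those called lower went from 46 to 34 and 37; over all genes the higher calls went from 15% to 30% and 33.7%, and the lower from 37.9% to 20.5% and 25.2%. Directions turned for Rela (0.16) and Nfkb1 (0.12) with median-of-ratios scaling, for Nfkbid (0.31) and Nfkbiz (0.11) with quantile normalization, and for Nfkbiz (0.34) in the second set alone; the cause was not tested. Libraries share replicate numbers within a set. In the first set the correlation of their deviations (r across genes) was 0.0334, 0.175 and 0.0683 for same-numbered pairs. It was -0.116 to 0.0613 for pairs of unlike number there. In the second set 2 against 2 leaves a single value, -0.0544 for same-numbered pairs. These values do not settle whether the numbers pair libraries, so the main fit left them out and a replicate block was an alternative. With the replicate block, 6 members were called lower and 0 higher (4545 and 1703 of 12874 genes). There 5 member transcripts were called in place of 6, while 3568 of 31937 transcripts were lower and 1263 higher. TPM without depth limits what can be said of genes near 0, above all Rel.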
